A study of Homo sapiens with 54 samples.

Results

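The Krüppel-like factor (KLF) genes described here are KLF2, KLF4, KLF5, KLF6, KLF7, KLF9, KLF10, KLF11, KLF13 and KLF15, found by their symbols in each table of raw counts, 10 of 26517 genes. They were followed in BT549 cells, a human line of triple-negative breast cancer that grows with mesenchymal features, over 54 RNA sequencing libraries in 18 groups of 3. The GATA6 experiment knocked down the transcription factor GATA6 with pooled siRNAs (siGATA6) or used a control siRNA (siCtl) for 72 h, followed by 2 h with 500 nM dexamethasone (DEX), a synthetic glucocorticoid, or with vehicle. The BRM014 experiment combined 10 µM BRM014, which blocks the ATPases that drive SWI/SNF chromatin remodelling, or DMSO, with or without 500 nM DEX, at 4 h and at 24 h. Sample titles give the 24 h time, whereas the protocol in the labels names 4 h for BRM014 and 2 h or 4 h for DEX. The AP-1 experiment used siRNA against FRA1 (siFRA1, gene FOSL1), siRNA against JUN (siJUN) or siCtl, each with 500 nM DEX or vehicle. Its labels do not state the times. All groups are the same cell line, and MDA-MB-231 cells were not analysed here.

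Every KLF protein carries 3 zinc fingers at its C-terminus that bind GC-rich and CACCC sequences, and the members differ in the part outside the fingers. KLF2, KLF4, KLF5, KLF6 and KLF7 act mostly as activators, although KLF4 can also repress. KLF9, KLF10, KLF11 and KLF13 recruit the corepressor Sin3A and act mostly as repressors, and KLF15 is known for control of amino acid and glucose metabolism. KLF9 and KLF15 are known direct targets of the glucocorticoid receptor in several tissues, and KLF10 is an early gene of the transforming growth factor beta (TGF-beta) pathway.

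KLF9 and KLF15 had the widest ranges of group means in the BRM014 experiment, 4.01 for KLF9 and 6.24 for KLF15 on the log2 scale of CPM (counts per 1000000 counts). Their promoter windows, from before to just after the RefSeq start site, are shown because both genes were higher with DEX. Both windows come from the minus strand and are written 5′ to 3′, with each GC box (GGGCGG) in capitals.
KLF9, chr9:70414608-70414907 (GRCh38.p14): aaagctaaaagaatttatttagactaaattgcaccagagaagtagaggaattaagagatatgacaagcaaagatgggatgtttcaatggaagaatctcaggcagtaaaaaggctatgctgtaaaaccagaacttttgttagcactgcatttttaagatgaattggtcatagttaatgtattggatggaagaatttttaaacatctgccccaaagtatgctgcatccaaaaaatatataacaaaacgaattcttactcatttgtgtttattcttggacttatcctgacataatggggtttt
KLF15, chr3:126357359-126357658 (GRCh38.p14): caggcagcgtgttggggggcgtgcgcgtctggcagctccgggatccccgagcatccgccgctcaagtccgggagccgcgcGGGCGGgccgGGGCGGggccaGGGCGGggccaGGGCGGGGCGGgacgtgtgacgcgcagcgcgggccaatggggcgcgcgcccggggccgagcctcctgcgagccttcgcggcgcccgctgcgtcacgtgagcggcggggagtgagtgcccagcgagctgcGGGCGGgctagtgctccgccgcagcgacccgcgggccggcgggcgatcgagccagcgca
The KLF15 window had 80.3% G and C and held 6 GC boxes, the kind of site that KLF and SP proteins bind. The KLF9 window had 32.7% G and C, and 2.59% of the 35116 RefSeq promoter windows had less (median 58.7%). Neither window held the glucocorticoid receptor hexamer AGAACA, the AP-1 site TGANTCA or CACCC on either strand, and the KLF9 window held no GC box. A GC box and a CACCC can share bases. Of all promoter windows, 45% held a GC box, 59.9% CACCC, 14.8% AGAACA and 7.71% TGANTCA. RefSeq windows were at hand for 9 of the 10 genes, 14 windows in all, and AGAACA stood in 1 window of KLF5 and 1 window of KLF7. A match is only a match of letters, and these windows leave out distant enhancers.

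Levels were compared between genes only as CPM per kilobase of exon. In DMSO cells at 4 h, KLF6 stood highest at 54.0 ± 2.22 CPM per kb (mean ± SD, n = 3, as for all means below). KLF10 (17.8 ± 0.509) and KLF4 (17.7 ± 1.06) followed and did not differ beyond their spread, then KLF5 at 11.1 ± 1.20. KLF13 (5.82 ± 0.480) and KLF11 (5.68 ± 0.159) also lay within their spread. KLF7 (3.70 ± 0.0690), KLF9 (2.30 ± 0.0350), KLF2 (0.702 ± 0.155) and KLF15 (0.017 ± 0.003 CPM per kb) closed the order. With DEX for 4 h KLF9 was second of the 10 genes at 37.3 ± 0.935 CPM per kb, against eighth in DMSO cells, and KLF15 reached 3.57 ± 0.0731 CPM per kb.

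KLF11 is the one member whose exons overlap another gene, the opposite-strand AC104794.4, over 416 bases or 9.07% of its exon length. Its counts are uncertain to that extent, since the strand setting is not given in the sources used here. Total counts per library lay between 10186607 and 30530736. The mesenchymal markers VIM, FN1, ZEB1, CDH2 and CD44 were present in every group (lowest group mean 35.0 CPM), and ESR1, PGR, FOXA1 and EPCAM were at or below 0.289 CPM. ERBB2 (58.7 to 86.1 CPM), GATA3 (13.8 to 58.1 CPM) and CDH1 (1.22 to 15.1 CPM) were also read. The leukocyte marker CD3E and the endothelial markers CDH5 and PECAM1 stayed at or below 0.235 CPM, while PTPRC reached 1.82 CPM and CD14 5.59 CPM. GATA6 averaged 10.3 CPM in siGATA6 cells and 85.2 CPM in siCtl cells with vehicle, FOSL1 46.8 CPM in siFRA1 cells and 172 CPM in siCtl cells, and JUN 99.1 CPM in siJUN cells and 280.4 CPM in siCtl cells. All 10 genes passed the filter on low counts in each experiment, KLF15 only through its DEX groups.

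The first comparison asks what DEX does to the 10 members. KLF4, KLF5, KLF6, KLF7, KLF9 and KLF15 were higher and KLF10 was lower with DEX in 9 of 9 comparisons, whatever the siRNA, inhibitor or time (edgeR quasi-likelihood test, adjusted p under 0.05). KLF13 was higher in 2 of the 9, KLF11 in 1 and KLF2 in 0. KLF15 entered these tests only through its DEX groups. It therefore adds no independent support to any count of members called, here and below, in comparisons that include DEX groups. That covers the interactions and time differences of the DEX effect. At 2 h in siCtl cells 7 of 10 members were called, where 15.9% of all genes tested were called. The median absolute log2 fold change was 1.24 over the members and 0.11 over all genes. The members were chosen with earlier results of these data known, so their excess over all genes, here and below, is no test of the family. Of 12 other KLF and SP genes tested, 2 were higher and 2 lower, with a median absolute value of 0.42. In bulk RNA a lower level in every cell and fewer cells with the transcript cannot be told apart.

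**Figure D1:**
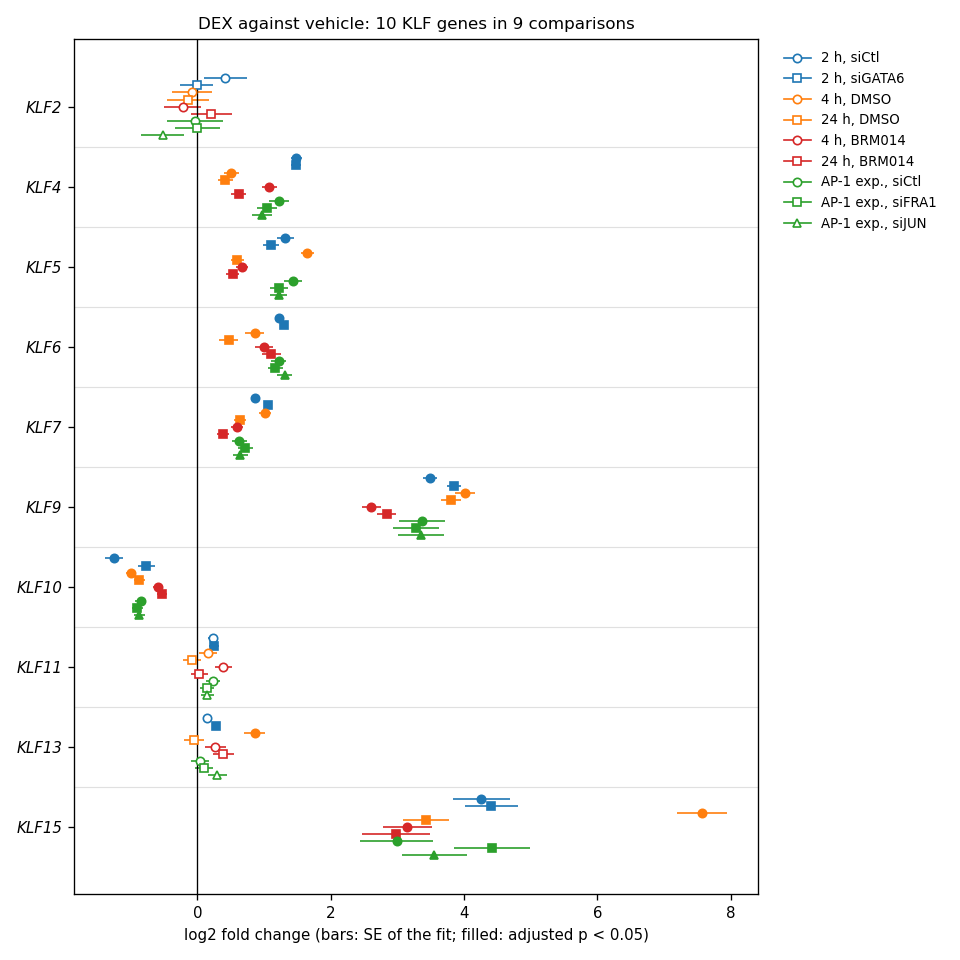
Log2 fold change (DEX over vehicle) of the 10 KLF genes in 9 comparisons, with colours and shapes for the comparisons, bars for the standard error of the fit and filled points for calls. KLF9 and KLF15 stand farthest right in each comparison, KLF10 is left of 0 in all, and KLF2 scatters around 0.

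Among the activators, KLF6, an immediate early gene found in many tissues, had 766.5, 725 and 762 CPM with DEX and 318.5, 317 and 322 CPM with vehicle in siCtl cells at 2 h. The libraries of the groups were far apart, and the fold change was 2.35 (log2 1.23, SE 0.0465, adjusted p = 2.4e-15). KLF6 rose by 1.30 on the log2 scale in siGATA6 cells (adjusted p = 8.93e-16), 0.86 in DMSO cells at 4 h, and 1.22, 1.17 and 1.31 in siCtl, siFRA1 and siJUN cells of the AP-1 experiment.

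KLF4, a factor of epithelial differentiation and of pluripotency, had 156, 133 and 169.8 CPM with DEX and 53.5, 55.1 and 55.6 CPM with vehicle in siCtl cells at 2 h. No DEX library came near a vehicle library (log2 1.48, SE 0.0836, adjusted p = 8.87e-09). In DMSO cells at 4 h the log2 change of KLF4 was 0.51 (SE 0.114, adjusted p = 0.00358), with 85.1, 90.5 and 100.3 CPM with DEX against 61.3, 64.0 and 69.0 CPM with DMSO. The change of KLF4 was thus called at each time, from values that do not overlap.

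KLF5, which promotes proliferation of basal epithelial cells, had 165, 165 and 151 CPM with DEX and 63.9, 65.4 and 63.2 CPM with vehicle in siCtl cells at 2 h (log2 1.32, SE 0.124, adjusted p = 4.16e-05). Every DEX library was above every vehicle library, and the same held for KLF5 in the other 8 DEX comparisons. KLF7, named for its wide expression and studied in neurons and fat, changed by 0.87 on the log2 scale at 2 h in siCtl cells (SE 0.0620, adjusted p = 2.17e-10), with 70.2, 74.5 and 75.7 CPM with DEX and 43.4, 37.6 and 40.1 CPM with vehicle. KLF2, a factor best known from endothelium and resting T cells, was low, at 0.816, 0.931 and 1.01 CPM with DEX and 0.462, 0.678 and 0.804 CPM with vehicle. These KLF2 libraries did not overlap but the difference missed the threshold (log2 0.42, SE 0.319, adjusted p = 0.451), and over the 9 comparisons its log2 values ran between -0.52 and 0.42.

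KLF9, first described as a protein that binds GC-rich elements and a feedback gene of steroid and thyroid hormones, had 177, 197 and 208 CPM with DEX and 15.3, 15.7 and 19.5 CPM with vehicle in siCtl cells at 2 h. All DEX libraries lay far above all vehicle libraries, a fold of 11.2 (log2 3.49, SE 0.0998, adjusted p = 5.91e-12). In siGATA6 cells KLF9 had 159.5, 169 and 179 CPM with DEX and 10.8, 11.01 and 13.5 CPM with vehicle (log2 3.85, SE 0.102, adjusted p = 2.79e-12). In DMSO cells KLF9 had 190, 199 and 191 CPM after 4 h of DEX and 12, 11.7 and 11.99 CPM without (log2 4.02, SE 0.152, adjusted p = 1.06e-13). After 24 h it had 182, 164 and 196 CPM with DEX and 14.4, 14.4 and 9.84 CPM with DMSO alone (log2 3.81, SE 0.150, adjusted p = 2.4e-13). The level with DEX was thus similar at 24 h and at 4 h, and the difference of the 2 DEX effects was -0.22 (SE 0.192, adjusted p = 0.588).

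In the AP-1 experiment KLF9 had 245, 236 and 329.9 CPM with DEX and 21.7, 21.4 and 35.5 CPM with vehicle in siCtl cells (log2 3.37, SE 0.345, adjusted p = 2.21e-05). Replicate 3 was the highest and replicate 2 the lowest library for KLF9 in 6 of 6 groups there, and the standard error was larger than in the other experiments. In the GATA6 experiment replicate 3 was the highest and replicate 1 the lowest in 4 of 4 groups.

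KLF10, the member that fell, had 24.1, 30.0 and 34.1 CPM with DEX and 69.6, 61.1 and 78.8 CPM with vehicle in siCtl cells at 2 h. The groups did not overlap, and the change in KLF10 was -1.25 (log2, SE 0.135, adjusted p = 6.68e-05). In DMSO cells KLF10 had 33.9, 34.1 and 38.6 CPM after 4 h of DEX and 69.2, 73.3 and 71.0 CPM without (log2 -1.0, SE 0.0771, adjusted p = 4.39e-09). Its log2 change was -0.87 at 24 h (adjusted p = 3.66e-08), and the time difference of 0.14 missed the threshold (SE 0.108, adjusted p = 0.528). Over the 9 comparisons the KLF10 values lay between -1.25 and -0.53, with no overlap of groups in any.

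KLF11 and KLF13, the other Sin3A-binding members, moved less. KLF13, a regulator of RANTES in T cells, had 95.7, 102 and 100.4 CPM after 4 h of DEX in DMSO cells and 59.3, 54.6 and 50.3 CPM without (log2 0.86, SE 0.155, adjusted p = 0.000386). At 24 h KLF13 had 54.5, 58.3 and 40.4 CPM with DEX and 62.8, 58.1 and 37.7 CPM without, groups that overlap (log2 -0.05, adjusted p = 0.867). The difference between the times was -0.91 (SE 0.218, adjusted p = 0.0102), and it missed the threshold when only the groups compared were fitted (-0.87, adjusted p = 0.0625). KLF13 was also called in siGATA6 cells at 2 h (log2 0.28, SE 0.0501, adjusted p = 0.000193). In siCtl cells at 2 h it was at 0.14 (adjusted p = 0.0552), and without DEX replicate 1 at 0.18 with an adjusted p of 0.0339. Adding replicate number to the fit (a replicate block) gave 0.15 there, with an adjusted p of 0.0236.

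KLF11, which also regulates insulin transcription, was called in siGATA6 cells at 2 h only by a small margin (log2 0.25, SE 0.0765, adjusted p = 0.027). That call was lost without vehicle replicate 2 (0.17, adjusted p = 0.197), vehicle replicate 3 (0.26, adjusted p = 0.051) or DEX replicate 3 (0.22, adjusted p = 0.116), and with scaling by library totals alone (0.21, adjusted p = 0.0601). In siCtl cells KLF11 was at 0.23 (adjusted p = 0.0529), and it passed without DEX replicate 2 (0.28, adjusted p = 0.0384), with no filter on low counts (adjusted p = 0.0269) and with only the groups compared (adjusted p = 0.0415). A replicate block called KLF11 in siCtl cells too (0.23, adjusted p = 0.00726) and kept the call in siGATA6 cells.

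KLF15 had 2.89, 2.02 and 2.38 CPM with DEX and 0.231, 0.136 and 0.0643 CPM with vehicle in siCtl cells at 2 h. The vehicle values stand for 3, 2 and 2 reads, and the DEX values for 46, 39 and 45 reads. DEX libraries were all higher (log2 4.26, SE 0.429, adjusted p = 6.99e-08). In DMSO cells KLF15 had 10.4, 10.1 and 9.99 CPM after 4 h of DEX and 0.0444, 0.0441 and 0.0582 CPM without, which is 1 read in each DMSO library. Summed over libraries there were 676 reads with DEX and 3 reads without, a ratio of 211 with a 95% interval of 71.9 to 1030 that covers counting error only (the fitted log2 7.57 has an adjusted p of 6.48e-12).

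At 24 h KLF15 had 1.29, 1.94 and 2.36 CPM with DEX and 0.258, 0.133 and 0.102 CPM with DMSO alone (log2 3.43, SE 0.339, adjusted p = 1.6e-07). The level with DEX was therefore lower at 24 h than at 4 h, with no overlap, and the DEX effect differed between the times by -4.14 (log2, SE 0.682, adjusted p = 0.000444). This difference holds the uncertainty of 3 reads in the 4 h DMSO group. KLF5 showed the same order, with 56.3, 57.1 and 63.5 CPM after 24 h of DEX and 133, 142 and 130.0 CPM after 4 h, against 41.0, 38.3 and 37.5 CPM (24 h) and 48.4, 40.6 and 40.1 CPM (4 h) with DMSO. Its DEX effect was smaller at 24 h by 1.05 (log2 -1.05, SE 0.134, adjusted p = 3.72e-05). Of the 10 members, 3 (KLF5, KLF13 and KLF15) differed between the times, where 8.90% of all genes did. KLF15 adds no independent support to this count. KLF7 was at -0.37 (adjusted p = 0.0657), and without DEX 4 h replicate 1 at -0.42 with an adjusted p of 0.0421. A replicate block gave KLF7 -0.37 with an adjusted p of 0.0388.

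At 4 h in DMSO cells 8 of 10 members were called with DEX and 12.5% of all genes, and at 24 h 7 of 10 and 25.6%. At 24 h KLF4 was at 0.42 (adjusted p = 0.00882) and KLF6 at 0.47 (adjusted p = 0.0161), with KLF6 at 511, 511 and 370.4 CPM with DEX and 383.5, 352.3 and 267.7 CPM without, so that its groups overlap. The KLF6 call was lost without DMSO replicate 3 (0.34, adjusted p = 0.0987), DEX replicate 1 (0.40, adjusted p = 0.0731) or DEX replicate 2 (0.40, adjusted p = 0.0755), and the KLF4 call without DEX replicate 3 (0.30, adjusted p = 0.0616). With only the groups compared in the fit, the adjusted p was 0.0916 for KLF4 and 0.141 for KLF6. Both calls were kept with a replicate block. Of 12 alternatives, 8 kept the KLF6 call and 10 the KLF4 call. Replicate 3 was the lowest KLF6 library in both groups. DMSO cells at 24 h and at 4 h differed in 0 of 10 members and 0% of all genes by edgeR and also in 0 members by DESeq2. At an unadjusted p under 0.05, 1 member (KLF15, 13 reads at 24 h and 3 reads at 4 h, ratio 3.42, 95% interval 0.94 to 18.7) and 174 of 14547 genes differed.

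Of the other DEX comparisons, 9 of 10 members were called in siGATA6 cells (15.9% of all genes), 7 of 10 in BRM014 cells at 4 h (6.12%) and 7 of 10 at 24 h (13.8%). In the AP-1 experiment 7 of 10 were called in siCtl cells (5.51% of all genes), 7 of 10 in siFRA1 cells (4.93%) and 7 of 10 in siJUN cells (5.69%). In BRM014 cells at 24 h, the calls of KLF7 (log2 0.38, adjusted p = 0.00369) and KLF15 (log2 2.98, adjusted p = 0.000325) were lost when only the groups compared were fitted, at adjusted p of 0.0777 and 0.0564.

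The BRM014 experiment asks how the 10 members respond when the SWI/SNF ATPases are blocked. Without DEX, BRM014 raised KLF4, KLF6, KLF9, KLF10 and KLF13 at 4 h, 5 of 10 members where 8.68% of all genes were called. At 24 h KLF4, KLF10 and KLF13 were higher and KLF7 and KLF11 lower, 5 of 10 where 31.5% of all genes were called. With DEX present at 4 h, KLF5, KLF9 and KLF15 were lower with BRM014, while KLF4, KLF6 and KLF10 were higher with it, as they were without DEX. KLF4 and KLF10 were higher with BRM014 in 4 of 4 comparisons, and KLF6 and KLF13 in 3 of 4.

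**Figure D2:**
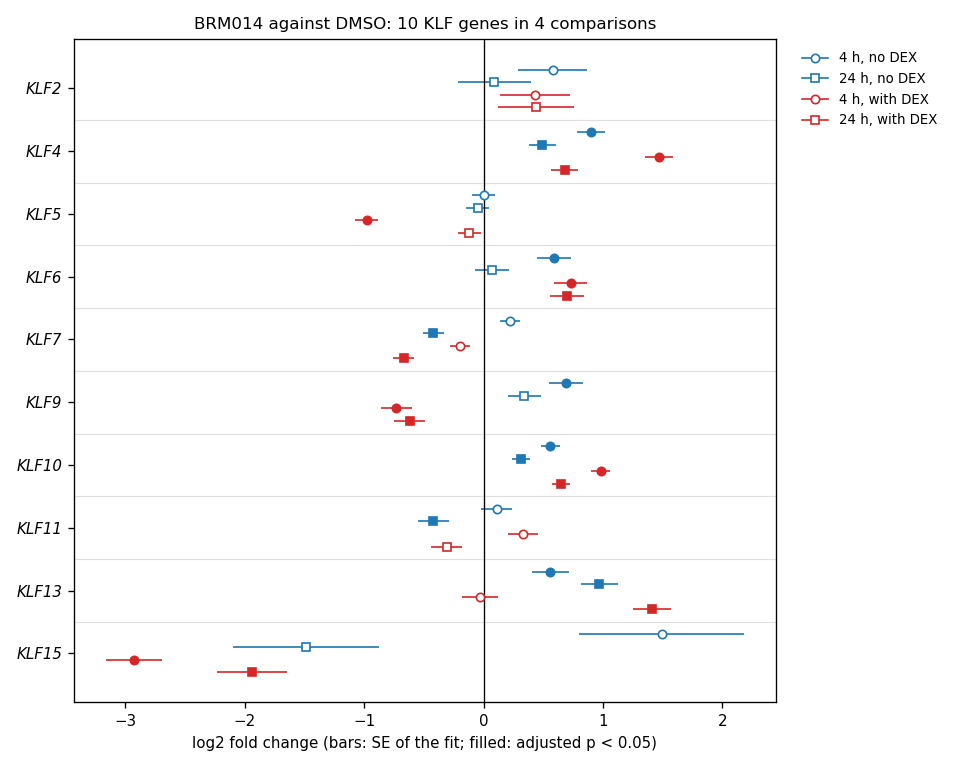
Log2 fold change (BRM014 over DMSO) of the 10 KLF genes at 4 h and 24 h, with DEX (red) and without (blue), bars for the standard error and filled points for calls. KLF4 and KLF10 lie right of 0 in all 4 comparisons, while KLF9 lies right of 0 without DEX and left of 0 with it.

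KLF9 had 125, 109 and 116 CPM with DEX plus BRM014 for 4 h, against 190, 199 and 191 CPM with DEX. Every combined library was below every DEX library (log2 -0.73, SE 0.133, adjusted p = 0.000624). Without DEX the order was the other way, with 20.1, 19.3 and 18.1 CPM in BRM014 cells and 12, 11.7 and 11.99 CPM in DMSO cells (log2 0.69, SE 0.139, adjusted p = 0.00282). At 24 h KLF9 had 118, 119 and 115 CPM with DEX plus BRM014 and 182, 164 and 196 CPM with DEX (log2 -0.62, SE 0.133, adjusted p = 0.000962). Without DEX at 24 h it had 20.1, 16.4 and 12.6 CPM with BRM014 and 14.4, 14.4 and 9.84 CPM with DMSO, groups that overlap (log2 0.34, SE 0.137, adjusted p = 0.0634). That value passed without DMSO replicate 1 (0.43, adjusted p = 0.0417), DMSO replicate 2 (0.43, adjusted p = 0.0451) or BRM014 replicate 3 (0.49, adjusted p = 0.00683), and with scaling by library totals alone (0.48, adjusted p = 0.0101). It passed with a replicate block as well (0.34, adjusted p = 0.0419).

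In order of level, KLF9 stood highest with DEX at 4 h and at 24 h, which overlap, then with DEX plus BRM014 at both times, which overlap. It was lower by far with BRM014 alone at 4 h and 24 h, which overlap, and lowest with DMSO at 24 h and 4 h, which overlap. BRM014 alone and DMSO also overlap at 24 h. KLF15 stood highest with DEX at 4 h (10.2 ± 0.208 CPM), followed by DEX at 24 h (1.86 ± 0.538 CPM) and DEX plus BRM014 at 4 h (1.33 ± 0.230 CPM), which overlap, and DEX plus BRM014 at 24 h (0.472 ± 0.00657 CPM). The 4 groups without DEX held 0 to 7 reads a library. By the correlation of group means over the 8 groups, the genes most like KLF15 were RREB1 (Pearson r 0.997), EEF2K (0.989) and PITPNM2 (0.984), and those most like KLF9 were ERCC6 (0.990), PER1 (0.985) and GID8 (0.983). These are descriptions over 8 groups that share their libraries with the KLF values.

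**Figure D3:**
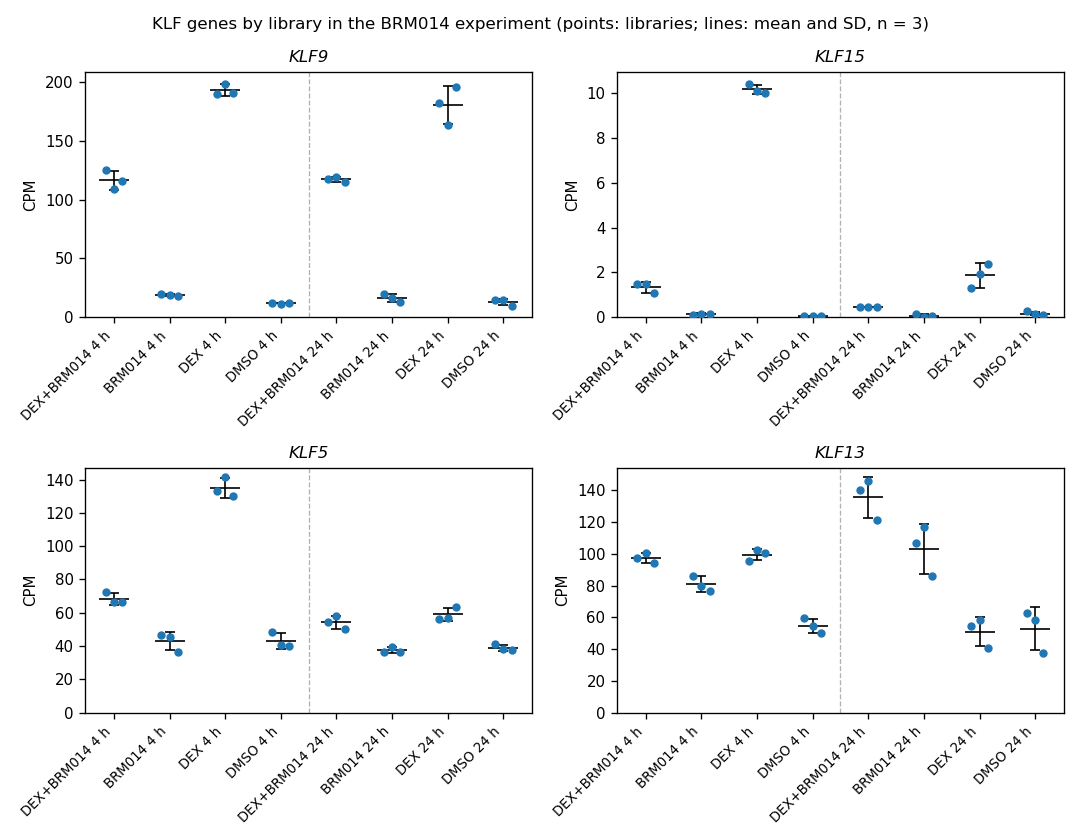
CPM of KLF9, KLF15, KLF5 and KLF13 in each library of the BRM014 experiment, at 4 h left and at 24 h right of the dashed line, with lines for the mean and SD (n = 3). KLF15 reaches 10.2 CPM with DEX at 4 h and stays at or below 2.36 CPM in the libraries of the other 7 groups, and KLF13 is highest with DEX plus BRM014 at 24 h.

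KLF15 had 1.46, 1.47 and 1.07 CPM with DEX plus BRM014 for 4 h, against 10.4, 10.1 and 9.99 CPM with DEX. All combined libraries lay far below (log2 -2.93, SE 0.233, adjusted p = 1.37e-08, a 7.63-fold lower level). At 24 h KLF15 had 0.472, 0.465 and 0.478 CPM with DEX plus BRM014 and 1.29, 1.94 and 2.36 CPM with DEX, again with no overlap (log2 -1.94, SE 0.294, adjusted p = 2.7e-05). Without DEX at 4 h there were 10 reads with BRM014 and 3 reads with DMSO, a ratio of 3.02 with a 95% interval of 0.779 to 17.1. At 24 h without DEX the log2 value was -1.49 (adjusted p = 0.099), and without BRM014 replicate 1 it was -2.74 with an adjusted p of 0.0273, which leaves 1 read in the BRM014 group.

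KLF5 had 72.3, 66.4 and 66.3 CPM with DEX plus BRM014 for 4 h, against 133, 142 and 130.0 CPM with DEX. The combined libraries were all lower (log2 -0.98, SE 0.0952, adjusted p = 2.32e-07). Without DEX, KLF5 had 46.9, 45.45 and 36.7 CPM in BRM014 cells and 48.4, 40.6 and 40.1 CPM in DMSO cells at 4 h, which overlap (log2 0.00, adjusted p = 0.994). At 24 h with DEX the KLF5 value was -0.12 (SE 0.0949, adjusted p = 0.366).

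KLF4 had 254.2, 267.4 and 244 CPM with DEX plus BRM014 for 4 h, against 85.1, 90.5 and 100.3 CPM with DEX. This was the highest group of KLF4 in the experiment, 2.77-fold above DEX (log2 1.47, SE 0.116, adjusted p = 1.2e-08). Without DEX, KLF4 had 110.0, 121 and 132 CPM with BRM014 and 61.3, 64.0 and 69.0 CPM with DMSO at 4 h (log2 0.90, SE 0.115, adjusted p = 2.73e-05). KLF6 had 1102, 979 and 907 CPM with DEX plus BRM014 for 4 h and 648, 575.5 and 577 CPM with DEX (log2 0.73, SE 0.140, adjusted p = 0.000999). The groups did not overlap, nor did they without DEX at 4 h, where KLF6 had 536, 518 and 437 CPM with BRM014 and 346.6, 321 and 326 CPM with DMSO (log2 0.59, adjusted p = 0.0106).

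KLF10 had 70.9, 71.6 and 67.4 CPM with DEX plus BRM014 for 4 h and 33.9, 34.1 and 38.6 CPM with DEX (log2 0.98, SE 0.0771, adjusted p = 1.24e-08). The combined libraries were close to the DMSO libraries of 69.2, 73.3 and 71.0 CPM, a pair that was not tested. Without DEX, KLF10 had 110.1, 111 and 94.7 CPM with BRM014 at 4 h, all above DMSO (log2 0.56, SE 0.0762, adjusted p = 5.51e-05). At 24 h the KLF10 values were 0.65 with DEX (adjusted p = 1.31e-06) and 0.31 without (adjusted p = 0.00368).

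KLF13 had 107, 117 and 85.9 CPM with BRM014 for 24 h and 62.8, 58.1 and 37.7 CPM with DMSO (log2 0.97, SE 0.155, adjusted p = 5.98e-05). With DEX at 24 h it had 140.0, 146 and 121 CPM with BRM014 and 54.5, 58.3 and 40.4 CPM without (log2 1.41, SE 0.156, adjusted p = 5.39e-07). The groups were apart in both cases, and replicate 3 was the lowest library for KLF13 in 7 of the 8 groups. At 4 h KLF13 was at 0.56 without DEX (SE 0.154, adjusted p = 0.0257), and this call was lost without DMSO replicate 2 (0.56, adjusted p = 0.074), DMSO replicate 3 (0.50, adjusted p = 0.111), BRM014 replicate 1 (0.51, adjusted p = 0.0758) or BRM014 replicate 2 (0.57, adjusted p = 0.0547). With DEX at 4 h the KLF13 value was -0.03 (adjusted p = 0.951).

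KLF7 fell at 24 h, with 25.8, 26.1 and 24.1 CPM in BRM014 cells and 36.2, 33.5 and 31.8 CPM in DMSO cells (log2 -0.42, SE 0.0862, adjusted p = 0.000812). With DEX it had 35.2, 35.0 and 29.1 CPM with BRM014 and 53.1, 50.4 and 54.6 CPM without (log2 -0.67, SE 0.0863, adjusted p = 3.7e-06), again with no overlap. At 4 h without DEX the KLF7 value was 0.22 (adjusted p = 0.131), and the BRM014 effect differed between 24 h and 4 h by -0.63 (SE 0.122, adjusted p = 0.00158). KLF7 was the 1 member of 10 with such a difference, where 9.44% of all genes had one. KLF10 reached -0.33 with an adjusted p of 0.0481 without BRM014 4 h replicate 3. Without DMSO 24 h replicate 3, KLF6 reached -0.66 (adjusted p = 0.0326), KLF11 -0.64 (adjusted p = 0.0339) and KLF15 -3.26 (adjusted p = 0.041), and without BRM014 24 h replicate 1 KLF15 reached -4.23 (adjusted p = 0.0218). A replicate block called KLF4 (-0.41, adjusted p = 0.049), KLF6 (-0.5, adjusted p = 0.0118) and KLF11 (-0.52, adjusted p = 0.0173).

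KLF11 was lower with BRM014 at 24 h, at 19.6, 21.0 and 16.1 CPM against 27.2, 27.4 and 21.5 CPM with DMSO (log2 -0.42, SE 0.130, adjusted p = 0.0164). The groups lie close, and the call was lost without DMSO replicate 1 (-0.37, adjusted p = 0.0665), DMSO replicate 2 (-0.37, adjusted p = 0.0735) or BRM014 replicate 3 (-0.33, adjusted p = 0.0803), with library totals alone (-0.29, adjusted p = 0.0849) and with only the groups compared (adjusted p = 0.0742). It was kept with a replicate block, and replicate 3 was the lowest library in both groups. With DEX at 4 h KLF11 was at 0.33 (adjusted p = 0.104), and passed with library totals alone (0.40, adjusted p = 0.0368) and with only the groups compared (0.35, adjusted p = 0.0446). With DEX at 24 h the KLF11 value was -0.31 (adjusted p = 0.0711), and without DEX replicate 3 it was -0.44 with an adjusted p of 0.0135. The block called KLF11 with DEX at 4 h (0.32, adjusted p = 0.0327) and at 24 h (-0.31, adjusted p = 0.0213). KLF2 was called in 0 of the 4 comparisons by edgeR, 0 of them at an unadjusted p under 0.05 and 0 by DESeq2. With BRM014 added to DEX, 6 of 10 members were called at 4 h, where 12.8% of all genes were called, and 7 of 10 at 24 h, where 35.5% were.

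Whether the DEX effect itself differed with BRM014 was tested as an interaction. At 4 h it was called for 4 of 10 members, KLF5, KLF9, KLF10 and KLF15, where 2.29% of all genes were called. KLF15 adds no independent support to this count, since it passed the filter only through its DEX groups. The DEX effect on KLF9 was 2.61 in BRM014 cells and 4.02 in DMSO cells, a difference of -1.42 (SE 0.192, adjusted p = 0.000151). For KLF5 the DEX effect was 0.67 in BRM014 cells and 1.65 in DMSO cells, a difference of -0.98 (SE 0.134, adjusted p = 0.000156). For KLF15 it was 3.15 in BRM014 cells and 7.57 in DMSO cells, a difference of -4.42 (SE 0.729, adjusted p = 0.000947) that again rests on 3 reads in the DMSO group.

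For KLF10 the DEX effect was -0.59 in BRM014 cells and -1.0 in DMSO cells, a difference of 0.41 (SE 0.108, adjusted p = 0.0463). This call was lost without any 1 of 10 of the 12 libraries, at adjusted p between 0.0537 and 0.152: each DMSO library, BRM014 replicates 1 and 3, DEX replicates 1 and 2 and each combined library. It was also lost with no filter on low counts (adjusted p = 0.11) and with only the groups compared (adjusted p = 0.0937), and kept with a replicate block. KLF4 was at 0.57 (adjusted p = 0.0783), and passed with library totals alone (0.64, adjusted p = 0.0231), with only the groups compared (0.58, adjusted p = 0.0149) and by DESeq2 (0.59, adjusted p = 0.0366). KLF13 was at -0.59 (adjusted p = 0.286), or -0.58 with an adjusted p of 0.011 with only the groups compared. The block called both KLF4 (0.57, adjusted p = 0.0196) and KLF13 (-0.6, adjusted p = 0.0434). KLF7 was at -0.42 (adjusted p = 0.0915), and without BRM014 replicate 3 was at -0.48 with an adjusted p of 0.0351.

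At 24 h the interaction was called for 1 of 10 members, KLF9, where 6.54% of all genes were called. The DEX effect on KLF9 was 2.84 in BRM014 cells and 3.81 in DMSO cells, a difference of -0.97 (SE 0.191, adjusted p = 0.00312) that missed the threshold with only the groups compared (-0.91, adjusted p = 0.0823). KLF6 was at 0.63 (adjusted p = 0.0628), and between 0.71 and 0.77 with adjusted p between 0.0161 and 0.0494 without DMSO replicate 3, BRM014 replicate 2, DEX replicate 2 or combined replicate 3. By DESeq2 KLF6 passed too (0.63, adjusted p = 0.0427), as did KLF10 (0.34, adjusted p = 0.0485), which by edgeR was at 0.34 with an adjusted p of 0.0664. A replicate block in edgeR called KLF6 (0.63, adjusted p = 0.00291) and KLF10 (0.34, adjusted p = 0.0404). KLF13 was at 0.44 (adjusted p = 0.285), and at 0.64 without DMSO replicate 3 (adjusted p = 0.0407). KLF15, with a DEX effect of 2.98 in BRM014 cells and 3.43 in DMSO cells, was at -0.45 (SE 0.932, adjusted p = 0.922).

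The siRNA comparisons ask whether the levels of the 10 members differ when GATA6, FRA1 or JUN is knocked down. With vehicle, siGATA6 gave higher KLF2 and KLF4 and lower KLF9 and KLF13, 4 of 10 members where 23.7% of all genes were called. With DEX it gave higher KLF4 and KLF10, 2 of 10 where 22.6% of all genes were called. The median absolute log2 fold change was 0.21 over the members and 0.13 over all genes with vehicle, and 0.13 over both with DEX. RN7SK averaged 8.41 CPM in siGATA6 cells and 2.98 CPM in siCtl cells with vehicle, and RNA45S5 35.2 CPM in siGATA6 cells and 11.3 CPM in siCtl cells, and with DEX RN7SK averaged 8.66 CPM in siGATA6 cells and 2.65 CPM in siCtl cells. The part of this shift in RNA composition in the KLF values was not tested.

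**Figure D4:**
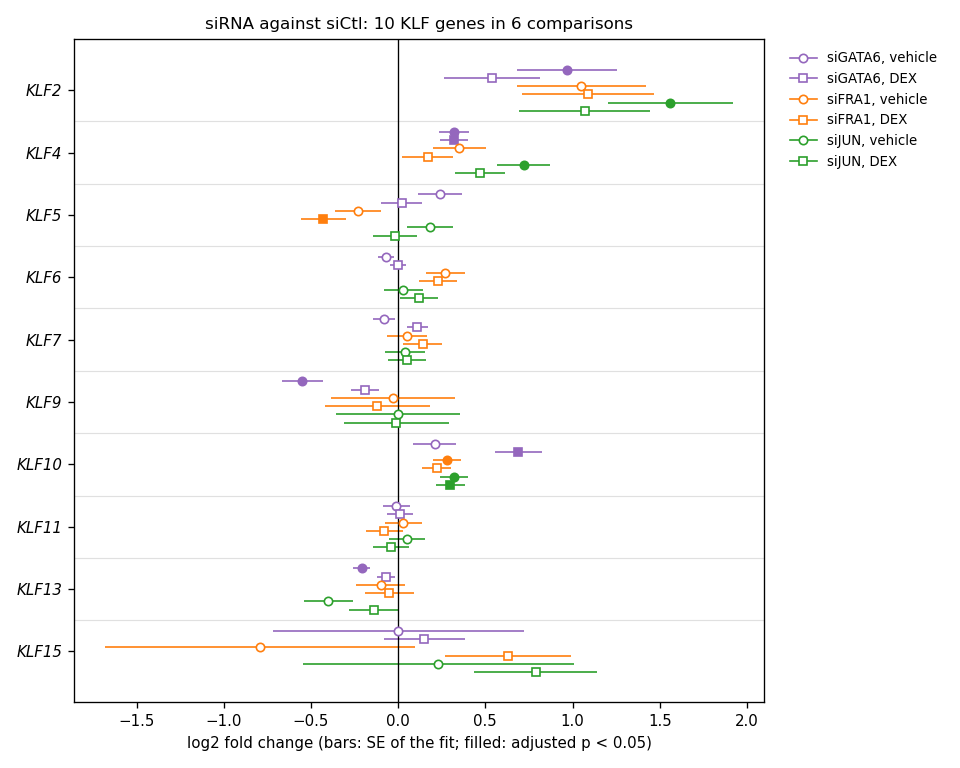
Log2 fold change (siRNA over siCtl) of the 10 KLF genes for siGATA6, siFRA1 and siJUN, with vehicle (circles) or DEX (squares), bars for the standard error and filled points for calls. KLF2 lies right of 0 in all 6 comparisons and is called in 2, and KLF10 is right of 0 in all 6 and called in 4.

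KLF9 had 10.8, 11.01 and 13.5 CPM in siGATA6 cells and 15.3, 15.7 and 19.5 CPM in siCtl cells with vehicle (log2 -0.55, SE 0.119, adjusted p = 0.00441). The siGATA6 libraries were all lower. With DEX KLF9 had 159.5, 169 and 179 CPM in siGATA6 cells and 177, 197 and 208 CPM in siCtl cells, which overlap (log2 -0.19, SE 0.0817, adjusted p = 0.114). With DEX the value passed without siCtl replicate 1 (-0.25, adjusted p = 0.0464), with only the groups compared (adjusted p = 0.027) and with a replicate block (adjusted p = 0.000135). KLF13 had 47.1, 47.3 and 47.9 CPM in siGATA6 cells and 53.0, 55.1 and 55.9 CPM in siCtl cells with vehicle, apart by a small margin (log2 -0.21, SE 0.0506, adjusted p = 0.00439).

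KLF4 had 64.0, 69.8 and 71.7 CPM in siGATA6 cells and 53.5, 55.1 and 55.6 CPM in siCtl cells with vehicle (log2 0.32, SE 0.0849, adjusted p = 0.0138). The groups were apart, but the call was lost without siCtl replicate 2 (0.33, adjusted p = 0.0506) or siGATA6 replicate 3 (0.29, adjusted p = 0.0519). With DEX KLF4 was at 0.32 too (SE 0.0777, adjusted p = 0.00849), and at an adjusted p of 0.0721 with only the groups compared. KLF2 had 1.745, 1.37 and 1.03 CPM in siGATA6 cells and 0.462, 0.678 and 0.804 CPM in siCtl cells with vehicle, on 24 to 34 reads a library in siGATA6 cells and 6 to 25 reads in siCtl cells. No siGATA6 library was as low as a siCtl library (log2 0.97, SE 0.286, adjusted p = 0.016), and the call was lost without siCtl replicate 1 (0.83, adjusted p = 0.0623) or siGATA6 replicate 1 (0.80, adjusted p = 0.0791).

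KLF10 had 42.8, 48.5 and 51.05 CPM in siGATA6 cells and 24.1, 30.0 and 34.1 CPM in siCtl cells with DEX (log2 0.69, SE 0.136, adjusted p = 0.00457). The groups were apart, whereas with vehicle they overlapped (log2 0.21, adjusted p = 0.257). The vehicle value passed with a replicate block (0.22, adjusted p = 0.00486). Whether siGATA6 altered the DEX effect was tested as an interaction. The main fit in edgeR called it for 0 of 10 members, where 0.338% of all genes were called, and DESeq2 also called 0 members. At an unadjusted p under 0.05 the main fit had 3 members, KLF7 (0.19), KLF9 (0.36) and KLF10 (0.48), with adjusted p between 0.614 and 0.671. Of these, KLF9 (0.35, adjusted p = 0.014) and KLF10 (0.46, adjusted p = 0.00468) were called in edgeR with a replicate block. The interaction call for KLF9 and KLF10 thus depended on whether replicate number was in the fit.

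In the AP-1 experiment siFRA1 and siJUN were each set against the same siCtl libraries, so values shared by both comparisons are not independent. With vehicle siFRA1 was called for 1 of 10 members, KLF10, where 10.8% of all genes were called, and siJUN for 3 of 10, KLF2, KLF4 and KLF10, where 6.82% of all genes were. With DEX siFRA1 was called for 1 of 10, KLF5 (12.9% of all genes), and siJUN for 1 of 10, KLF10 (6.57% of all genes).

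KLF2 had 5.74, 2.935 and 4.14 CPM in siJUN cells, 3.03, 3.18 and 2.81 CPM in siFRA1 cells and 1.99, 1.15 and 1.21 CPM in siCtl cells with vehicle. Both knockdown groups were above siCtl in every library, on 34 to 67 reads a library in the knockdowns and 14 to 22 in siCtl. The siJUN value was 1.56 (SE 0.359, adjusted p = 0.00975) and was lost without siCtl replicate 2 (1.41, adjusted p = 0.0563) or siJUN replicate 1 (1.28, adjusted p = 0.0881). The siFRA1 value of KLF2 was 1.05 (SE 0.370, adjusted p = 0.0728), and with only the groups compared its adjusted p was 0.0336. With DEX KLF2 was at 1.09 with siFRA1 (adjusted p = 0.063, or 1.31 and 0.0435 without siFRA1 replicate 2) and at 1.07 with siJUN (adjusted p = 0.1, or 1.31 and 0.0345 without siJUN replicate 3). A replicate block called KLF2 for siFRA1 with vehicle (1.07, adjusted p = 0.0108) and with DEX (1.08, adjusted p = 0.0116). It did so for siJUN with DEX as well (1.07, adjusted p = 0.0161).

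KLF4 had 113, 81.2 and 83.5 CPM in siJUN cells and 57.7, 59.5 and 51.0 CPM in siCtl cells with vehicle (log2 0.72, SE 0.151, adjusted p = 0.00792). The groups were apart, and with DEX the KLF4 value for siJUN was 0.47 (adjusted p = 0.0674, or 0.0193 with only the groups compared). KLF13 was at -0.40 with siJUN and vehicle (adjusted p = 0.0978), and without siJUN replicate 3 at -0.53 with an adjusted p of 0.036. A replicate block called this KLF13 value (-0.41, adjusted p = 0.000143) and that of KLF4 for siJUN with DEX (0.47, adjusted p = 0.0111).

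KLF10 had 112, 118 and 102 CPM in siJUN cells, 106, 105 and 111 CPM in siFRA1 cells and 83.6, 90.7 and 91.4 CPM in siCtl cells with vehicle. Both knockdown groups lay above siCtl, at log2 0.32 for siJUN (SE 0.0788, adjusted p = 0.0146) and 0.28 for siFRA1 (SE 0.0787, adjusted p = 0.0268). The siFRA1 call was lost without siCtl replicate 1 (0.24, adjusted p = 0.122), siCtl replicate 2 (0.29, adjusted p = 0.0613), siFRA1 replicate 1 (0.28, adjusted p = 0.0723) or siFRA1 replicate 3 (0.25, adjusted p = 0.0871). The siJUN call was lost without siCtl replicate 1 (0.28, adjusted p = 0.0806), siJUN replicate 1 (0.32, adjusted p = 0.0639) or siJUN replicate 2 (0.27, adjusted p = 0.0836).

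With DEX, KLF10 had 58.7, 61.3 and 61.45 CPM in siJUN cells and 49.9, 44.1 and 53.6 CPM in siCtl cells (log2 0.30, SE 0.0822, adjusted p = 0.0304). This call was lost without siCtl replicate 1 or 2 or any siJUN library, at values between 0.23 and 0.32 and adjusted p between 0.0642 and 0.186, and with only the groups compared (adjusted p = 0.0804). For siFRA1 with DEX KLF10 was at 0.22 (adjusted p = 0.0822), and at 0.29 without siCtl replicate 3 (adjusted p = 0.0443) or siFRA1 replicate 3 (adjusted p = 0.0276). It passed with a replicate block too (0.22, adjusted p = 0.0271).

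KLF5 had 153, 113 and 169.7 CPM in siFRA1 cells and 186, 192 and 209 CPM in siCtl cells with DEX (log2 -0.43, SE 0.128, adjusted p = 0.0342). All siFRA1 libraries were lower, but the call was lost without any siCtl library or siFRA1 replicates 1 or 2, at values between -0.47 and -0.28 and adjusted p between 0.0595 and 0.122. It was lost too with no filter on low counts (adjusted p = 0.055) and with only the groups compared (adjusted p = 0.0741). With DEX, KLF9 was called for neither knockdown, in the main fit or with a replicate block. It had 229, 209 and 311 CPM in siFRA1 cells, 254.6, 209 and 345.2 CPM in siJUN cells and 245, 236 and 329.9 CPM in siCtl cells. Its log2 values were -0.12 for siFRA1 (SE 0.301, adjusted p = 0.851) and -0.01 for siJUN (SE 0.300, adjusted p = 0.994). These standard errors hold the spread that same-numbered libraries share. At equal replicate number siFRA1 lay below siCtl each time, and siJUN lay on both sides.

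**Figure D5:**
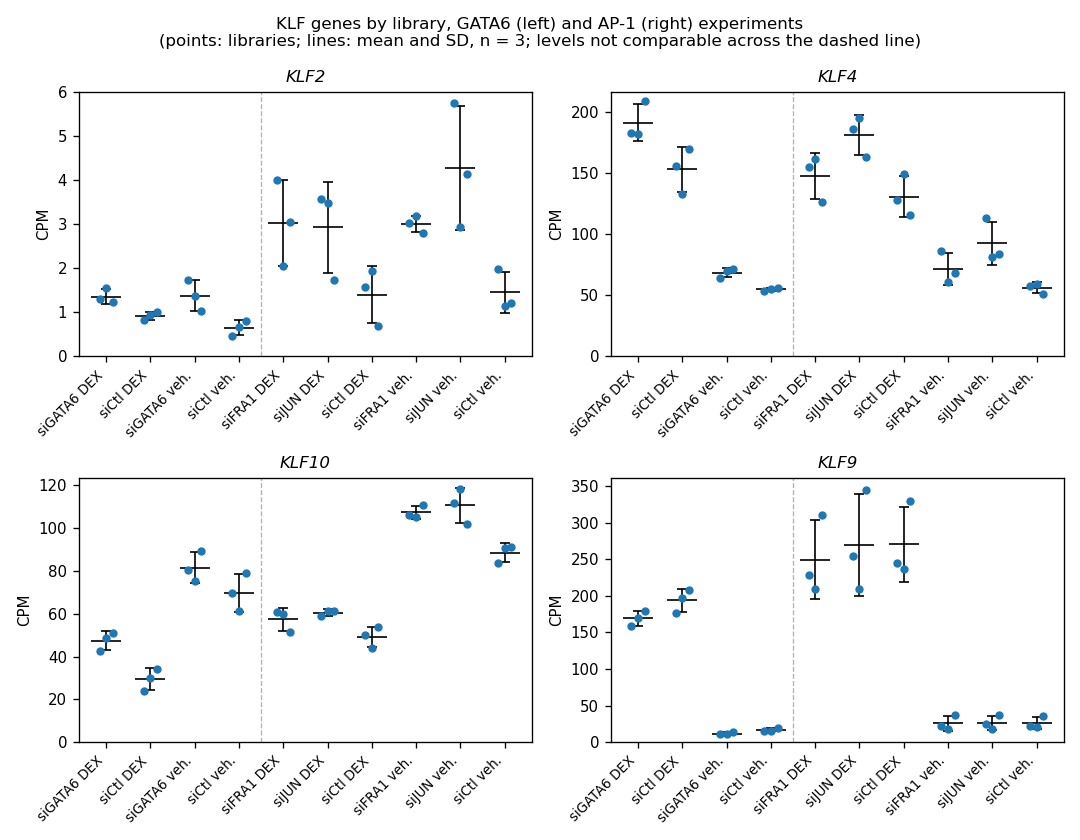
CPM of KLF2, KLF4, KLF10 and KLF9 in each library of the GATA6 experiment (left of the dashed line) and the AP-1 experiment (right), with lines for the mean and SD (n = 3). KLF10 is lower in DEX than in vehicle groups of each siRNA, and KLF9 with DEX spreads more widely in the AP-1 experiment, where replicate 3 is the highest.

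The interaction of DEX with siFRA1 and with siJUN was called for 0 of 10 members by edgeR, 0 at an unadjusted p under 0.05 and 0 by DESeq2. It was called for 0% of all genes by edgeR, although 302 of 13658 genes for siFRA1 and 378 for siJUN had an unadjusted p under 0.05, and DESeq2 called 2 genes for siFRA1 and 0 for siJUN. The difference in the DEX effect on KLF9 was -0.09 (SE 0.465) with siFRA1 and 0.00 (SE 0.466) with siJUN. Set against siFRA1, siJUN was called by edgeR for 0 of 10 members with vehicle (8.47% of all genes) and 0 with DEX (7.70%). DESeq2 called 1 member in each, where it called 1308 genes with vehicle and 1198 with DEX. An unadjusted p under 0.05 was found for 4 members with vehicle (22.4% of all genes) and 1 with DEX (21.8%). KLF5 was at 0.41 in both, with adjusted p of 0.0657 with vehicle and 0.0601 with DEX, and without siFRA1 replicate 3 or siJUN replicate 2 it passed with DEX (0.54, adjusted p = 0.0169, and 0.49, adjusted p = 0.0458). A replicate block gave KLF5 0.42 in both, with adjusted p of 0.000992 with vehicle and 0.000336 with DEX.

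Other genes of the family and its surroundings were read from 4 further lists. Of 16 other KLF and SP genes, 12 were tested in the GATA6 experiment, and 2 were higher and 2 lower with DEX in siCtl cells, where 15.9% of all genes were called. SP5, a target of Wnt signalling, averaged 1.08 ± 0.0706 CPM with DEX and 0.216 ± 0.146 CPM with vehicle (log2 2.49, adjusted p = 0.000256), and KLF16 was at 0.36. KLF14 was at -0.74 and KLF3, a CtBP-binding repressor, at -0.49. In DMSO cells at 4 h 2 of 12 were higher (SP5 at 2.11 and KLF16 at 0.41) and 1 lower (KLF14 at -0.94), where 12.5% of all genes were called. The members' median log2 value there was 0.86 and that of all genes -0.01. With BRM014 added to DEX at 4 h, 1 of 12 was called, KLF14 (log2 1.31, adjusted p = 0.00217), where 12.8% of all genes were called.

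Of 9 KLF cofactors, 3 were higher and 1 lower with DEX at 2 h in siCtl cells (15.9% of all genes called), with SIN3B, a Sin3 scaffold, at 0.35, KAT2B at 0.26 and the acetyltransferase EP300 at -0.34. At 4 h in DMSO cells, where 12.5% of all genes were called, SIN3B was the 1 cofactor called with DEX (119 ± 27.7 CPM with DEX and 54.6 ± 3.60 CPM with DMSO, log2 1.13, adjusted p = 6.43e-06). Its DEX effect was lower in BRM014 cells (difference -0.86, SE 0.202, adjusted p = 0.0204).

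Of 13 genes upstream of KLF genes or proteins, 4 were higher and 3 lower with DEX at 2 h in siCtl cells (15.9% of all genes called). TGFBR2, a TGF-beta receptor, averaged 250.5 ± 9.23 CPM with DEX and 84.9 ± 7.07 CPM with vehicle (log2 1.56, adjusted p = 2.52e-15), and it was called higher in 9 of 9 DEX comparisons. The ubiquitin ligase subunit FBXW7 was at 0.49, MEF2D at -0.50 and NR3C1, the glucocorticoid receptor gene, at -0.41. At 4 h in DMSO cells TGFBR2 was the 1 higher gene (log2 2.45), and MEF2C (-1.23) and SMAD3 (-0.84) were lower (12.5% of all genes called). With BRM014 the DEX effect on TGFBR2 at 4 h was smaller by 1.01 (log2 -1.01, SE 0.137, adjusted p = 0.00015).

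Of 12 genes described as KLF targets, 6 were tested in the GATA6 experiment, and 1 was higher and 2 lower with DEX in siCtl cells, where 15.9% of all genes were called. CDKN1A, a cell cycle inhibitor described as a target of KLF4 and KLF6, averaged 83.0 ± 5.28 CPM with DEX and 46.1 ± 0.468 CPM with vehicle (log2 0.85, adjusted p = 3.27e-09). SMAD7, an inhibitor of TGF-beta signalling that KLF10 is described to repress, averaged 17.1 ± 1.32 CPM with DEX and 41.5 ± 4.37 CPM with vehicle (log2 -1.29, adjusted p = 8.19e-11). S1PR1, a KLF2 target in T cells, was at -1.03 (adjusted p = 1.06e-05). With BRM014 added to DEX at 4 h, 0 of 7 targets were higher and 4 lower, led by CCND1 (log2 -2.14, adjusted p = 4.61e-10) and S1PR1 (-1.39), where 12.8% of all genes were called.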

How the data were processed

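Raw read counts per gene were deposited by the authors, 1 table per library, and counted with featureCounts on hg38 (GRCh38) after bcl2fastq and SAMtools, per the submitters' processing notes, which also name DESeq2. For the strand setting and tool versions, nothing is stated in the sources used here. The AP-1 file headers name STAR alignments, and the labels call that RNA polyA and the other RNA total, so levels were not compared across experiments. A series-level table, identical to 1 AP-1 library, was not used.

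Counts were fitted per experiment with edgeR 4.0.16 in R 4.3.3 (filterByExpr, TMM scaling, 1 mean per group, robust quasi-likelihood test, Benjamini-Hochberg adjustment, called under 0.05). Genes tested were 13897 for GATA6, 14547 for BRM014 and 13658 for AP-1. The code was tested on simulated data. CPM are counts per 1000000 of the TMM-scaled total. The members and gene lists were chosen with earlier results of these data known. All members are named in the text, and from each other list at most 2 called genes per direction and comparison, those of largest change. Titles call the replicates biological in the GATA6 and BRM014 experiments and plain replicates in the AP-1 experiment, where the spread behind the p-values may be technical. Alternatives were other scalings, no filter, only the groups compared, a replicate block, DESeq2 1.42.0 and leaving out each library. Promoter sequences are from RefSeq (GRCh38.p14).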

Additional observations from a re-analysis of the deposited data

Results flagged for a closer look

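The DEX effect differed between BRM014 and DMSO cells at 4 h, by the interaction test in edgeR, for KLF15 (-4.42 on the log2 scale, adjusted p = 0.000947), KLF9 (-1.42, adjusted p = 0.000151), KLF5 (-0.98, adjusted p = 0.000156) and KLF10 (0.41, adjusted p = 0.0463). The KLF15 value rests on 3 reads in the DMSO group, and the KLF10 call was lost without any 1 of 10 of the 12 libraries. At 24 h it differed for KLF9 (-0.97, adjusted p = 0.00312).

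The DEX effect in DMSO cells differed between 24 h and 4 h for KLF15 (-4.14, adjusted p = 0.000444), KLF5 (-1.05, adjusted p = 3.72e-05) and KLF13 (-0.91, adjusted p = 0.0102). The BRM014 effect without DEX differed between 24 h and 4 h for KLF7 (-0.63, adjusted p = 0.00158). Groups held 3 libraries, too few to look for a single library that stands apart within a group.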

How the results depend on the processing

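Over the 290 results of 10 members in 29 comparisons, none changed direction while called under any alternative, and another size factor (DESeq2's) changed no call. Library totals alone gained 5 calls and lost 2, no filter on low counts gained 1 and lost 2, only the groups compared gained 7 and lost 11, and DESeq2 gained 8 and lost 0. Leaving out a library gained 27 and lost 47 calls. With a replicate block 34 calls were gained and 0 lost. Of these, the text above gives only a part. The replicate numbers were not taken to pair libraries in the main fits. Same-numbered libraries deviated together, with a correlation over 0.1, in 16 of 18 pairs in the GATA6 experiment, 54 of 84 in the BRM014 experiment and 36 of 45 in the AP-1 experiment, short of all pairs in each. Their median correlation was 0.156, 0.148 and 0.238 in these experiments, against -0.0724, -0.0781 and -0.0783 for libraries of different number. Same-numbered libraries thus shared part of their spread, which the main fits leave in the error.

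Counts of members called moved most where few were called. For siFRA1 with DEX (1 called) the count was 0 with no filter or only the groups compared, 2 by DESeq2 and 4 with the block. For siFRA1 with vehicle (1) it was 2 with only the groups compared, 2 by DESeq2 and 4 with the block. For siJUN with DEX (1) it was 2 by DESeq2 and 3 with the block. For the interaction of BRM014 and DEX at 24 h (1) it was 0 with only the groups compared, 3 by DESeq2 and 3 with the block. The block gave 4 for the time difference of BRM014 (1) and 2 for the siGATA6 interaction (0). For siJUN against siFRA1 (0) with vehicle it was 1 with library totals alone, 1 by DESeq2 and 3 with the block, and with DEX 1 under each of these. Leaving out 1 library gave 1 to 4 for the time difference of BRM014, 1 to 3 for the interaction at 24 h, 0 to 1 for siFRA1 with vehicle, 1 to 4 for siJUN with vehicle, 0 to 2 for siFRA1 with DEX, 0 to 1 for siJUN with DEX and 0 to 1 for siJUN against siFRA1 with DEX. With the block, calls over all genes rose too. For siFRA1 they went from 1759 to 3621 with DEX and from 1477 to 3357 with vehicle. For siJUN with DEX they went from 898 to 2343, and for the interaction at 24 h from 952 to 1498. With library totals alone, calls over all genes fell from 1157 to 1123 for siJUN against siFRA1 with vehicle, where the member count rose. The cause of these changes in counts was not tested. Depth limits KLF2 and KLF15 without DEX, which held at most 67 and 7 reads a library there.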
